A study of Caenorhabditis elegans with 2 samples.

Results

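Transfer RNA (tRNA) genes are short genes that RNA polymerase III transcribes. Their promoter lies inside the transcribed sequence, as an A box near the 5′ end and a B box farther in, which the factor TFIIIC binds. TFIIIC places TFIIIB just upstream of the gene, and TFIIIB recruits the polymerase. The many copies of tRNA genes in the C. elegans genome lie scattered between and inside other genes, and many sit on the X chromosome.

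The regions described here are sites from chromatin immunoprecipitation with sequencing (ChIP-seq) of the protein Y116A8C.19 whose summit, the highest point of the region, lay within 200 bp of a tRNA gene on a nuclear chromosome. Of the 44951 nuclear regions in the lists of both replicates, 300 met this rule. Replicate 1 had 170 of 22595 regions (0.752%, exact 95% interval 0.644 to 0.874%) and replicate 2 had 130 of 22356 (0.581%, interval 0.486 to 0.690%). All intervals here are Clopper-Pearson intervals, which cover the counting of regions only.

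Both samples are biological replicates of 1 group, whole hermaphrodite L1 larvae collected 6 h after a synchronization by bleaching and starvation. The strain, OP532, carries the allele unc-119(tm4063) and the integrated transgene wgIs532, which adds a GFP-FLAG tag to the C-terminal end of Y116A8C.19, and an antibody to GFP was used. The RefSeq annotation describes Y116A8C.19 as a C3H1-type zinc finger protein. There is no second genotype, stage or treatment, and a control experiment was not analysed here, so no difference between conditions was tested. The lists give a signal for each region but no reads, so depth is unknown, and nothing in them can check the stage or the tissue against marker genes. The lists per replicate were made long, as input for a comparison between replicates by the irreproducible discovery rate (IDR), and hold background beside peaks. The authors' pooled list, from both replicates together, has 2689 regions and their IDR-thresholded list has 198.

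The sites on which the description turns are shown first. Y38E10A.t1 is an alanine tRNA gene at chrII:12678314-12678385 on the plus strand, and ZK563.t1 is a threonine tRNA gene at chrX:3371422-3371493 on the minus strand. They are printed in the direction of transcription, with the B box (the letters GTTCGANNC) in capitals. Sequences come from the RefSeq genome, build WBcel235 (ce11).
Y38E10A.t1: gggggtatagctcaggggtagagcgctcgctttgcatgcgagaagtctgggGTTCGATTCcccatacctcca
ZK563.t1: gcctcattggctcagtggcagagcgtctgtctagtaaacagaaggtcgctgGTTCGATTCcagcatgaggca

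The next windows run 75 bp to either side of the pooled summit, on the plus strand, and show where a strong summit sat relative to the genes. Bases inside a tRNA gene are in capitals. The window at M02F4, chrX:3036032-3036182, lies between a glutamate and a glycine tRNA gene that point away from each other. That at C53C7, chrX:13046450-13046600, lies between a pair of serine tRNA genes, of which it reaches C53C7.t1. That at ZK563.t1 is chrX:3371468-3371618. In all 3 the summit itself was outside the gene, on its 5′ side.
M02F4 window: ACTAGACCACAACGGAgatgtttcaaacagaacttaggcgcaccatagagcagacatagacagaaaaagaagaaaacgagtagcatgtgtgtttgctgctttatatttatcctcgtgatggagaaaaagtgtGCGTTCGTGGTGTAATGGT
C53C7 window: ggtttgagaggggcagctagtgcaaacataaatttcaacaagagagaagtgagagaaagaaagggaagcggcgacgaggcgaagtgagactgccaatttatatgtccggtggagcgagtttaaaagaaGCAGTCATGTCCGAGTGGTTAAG
ZK563.t1 window: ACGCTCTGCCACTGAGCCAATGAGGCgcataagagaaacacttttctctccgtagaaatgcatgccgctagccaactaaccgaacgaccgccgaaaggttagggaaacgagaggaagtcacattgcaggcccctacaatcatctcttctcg

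The strongest sites near tRNA genes were of another kind. The pooled summits closest to C18A11.t2, an arginine tRNA gene, and to Y38E10A.t1 lay too far away to meet the 200 bp rule, and their windows hold no base of a tRNA gene. They are chrX:8036336-8036486 and chrII:12678005-12678155, both on the plus strand. Capitals in the Y38E10A window mark TGGCCTAG, the reverse complement of CTAGGCCA, a sequence that recurs among the 198 IDR peaks.
C18A11 window: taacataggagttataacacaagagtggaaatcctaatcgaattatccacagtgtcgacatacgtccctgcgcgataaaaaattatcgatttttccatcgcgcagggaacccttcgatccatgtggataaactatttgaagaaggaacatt
Y38E10A window: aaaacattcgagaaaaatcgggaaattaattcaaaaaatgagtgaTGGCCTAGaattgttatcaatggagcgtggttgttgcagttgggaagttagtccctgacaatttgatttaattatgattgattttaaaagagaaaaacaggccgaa

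Regions gathered at tRNA genes in both replicates, and more so in the pooled list. Sequence within 200 bp of a tRNA gene makes up 0.272% of the nuclear genome. The share of regions with a summit there was 2.76 times this value in replicate 1, 2.13 times in replicate 2, and 7.92 times in the pooled list, where 58 of 2689 regions (2.16%, interval 1.64 to 2.78%) met the rule. In the IDR list 0 of 198 summits did (interval 0 to 1.85%). That interval holds the genome share of 0.272% and overlaps the interval of the pooled list, so the 0 cannot be told from either. So the sites were over-represented in the long lists and in the pooled list by this count, and were not seen among the peaks that the authors thresholded.

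Most tRNA genes had no region. Of 612 nuclear tRNA genes, 180 (29.4%) had a summit within 200 bp in replicate 1 and 126 (20.6%) in replicate 2. A region could count for more than 1 gene here. In replicate 1, 18 regions had 2 or more tRNA genes within 200 bp, and in replicate 2, 4 did. The replicates shared 63 of these genes, which is 35% of those of replicate 1 and 50% of those of replicate 2. A region was listed in replicate 1 only at 117 genes, in replicate 2 only at 63, and in neither at 369 (60.3%). A pooled region lay at 63 genes, of which 38 were among those seen in both replicates. Each of the 63 had a region in at least 1 replicate list. Only 58 pooled regions met the rule, so some counted for more than 1 gene.

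The same 200 bp were applied to other gene classes, whose shares lay on both sides of those of tRNA genes. Genes for snRNAs, the RNAs of the spliceosome and trans-splicing, had a region at 26.4% of 129 genes in replicate 1 and 23.3% in replicate 2. Genes for snoRNAs, which guide the modification of other RNAs, had one at 26.3% and 19.7% of 346. These snRNA and snoRNA shares were close to those of tRNA genes. Long intergenic RNA (lincRNA) genes stood higher in both replicates, at 33.5% and 35.6% of 194. Antisense RNA genes stood at 26% and 31% of 100, and pseudogenes at 25.8% and 25.2% of 2128. Both of these classes were below tRNA genes in replicate 1 and above them in replicate 2. Lower shares were 18.0% and 13.4% for 261 miRNA genes, 16.7% and 14.8% for 7764 genes annotated as other ncRNA, and 9.98% and 11.9% for 15363 piRNA genes. The 5′ ends of 19973 protein-coding genes stood at 11.9% and 10.9%, and 20 rRNA genes had a region at 2 in replicate 1 and at 0 in replicate 2. In the pooled list tRNA genes stood at 10.3%, snoRNA genes at 11.8% and snRNA genes at 8.53%. Genes for lincRNAs stood at 8.25% in that list, antisense RNA genes at 5% and pseudogenes at 2.49%. In the IDR list the counts were 0 of 612 tRNA genes, 5 of 129 snRNA genes (3.88%) and 4 of 346 snoRNA genes (1.16%). They were 3 of 194 lincRNA genes (1.55%), 105 of 19973 protein-coding 5′ ends (0.526%) and 21 of 7764 other ncRNA genes (0.270%). Pseudogenes had 2 of 2128 and piRNA genes 1 of 15363. The count was also 0 for the 261 miRNA, 100 antisense RNA and 20 rRNA genes, so a 0 was not particular to tRNA genes. The classes differ in gene length and in what lies beside them, whose part in the shares was not tested.

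**Figure D1:**
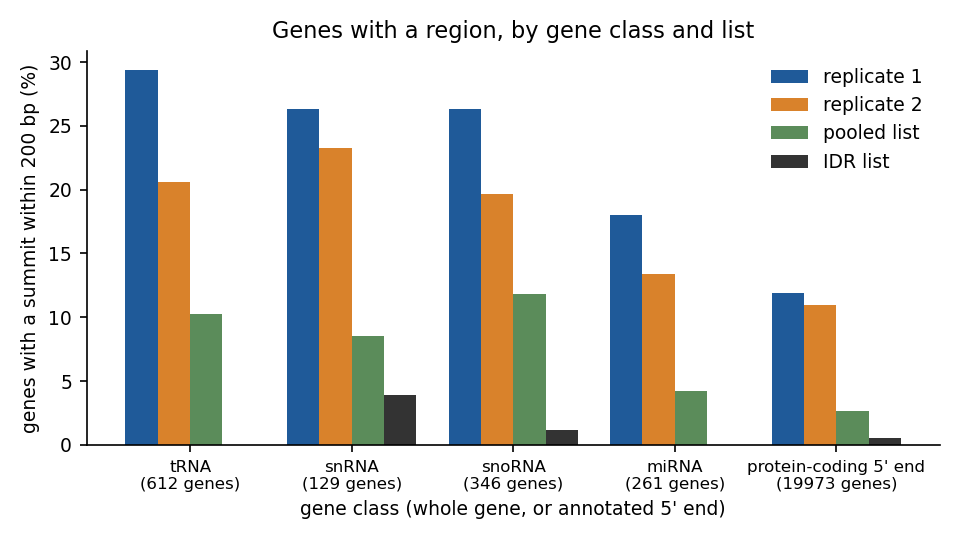
Share of genes (y axis, percent) with a summit within 200 bp of the gene, or of the annotated 5′ end for protein-coding genes, by gene class (x axis) and list (bars). tRNA genes reached 29.4% and 20.6% in the replicates, 10.3% in the pooled list and 0 in the IDR list. Only tRNA, snRNA, snoRNA, miRNA and protein-coding genes are drawn. Left out are the other classes of the text, among them lincRNA genes, which stood higher in both replicates (33.5% and 35.6%).

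Summits were densest on the 5′ side of tRNA genes and within them. In the 100 bp before the middle of the gene, in the direction of transcription, replicate 1 had 67 summits, 4.86 times the genome average, and replicate 2 had 46, or 3.37 times. In the 100 bp after the middle they stood at 3.12 and 2.13 times the average. Farther downstream the values fell unevenly, to 1.81 and 1.83 times at 200 to 300 bp, 1.09 and 1.25 times at 300 to 400 bp, and 1.45 and 1.32 times at 400 to 500 bp. Of the regions at tRNA genes, 82 of replicate 1 had the summit upstream of the gene, 38 inside it and 50 downstream, and replicate 2 had 57, 28 and 45. Per 100 kb of sequence of each kind, there were 67.0 summits upstream, 82.9 inside and 40.8 downstream in replicate 1, and 46.6, 61.1 and 36.8 in replicate 2. The order inside, upstream, downstream was thus the same in both replicates. A tRNA gene, at a median of 72 bp, is much shorter than the listed regions, which were 404 bp wide in replicate 1 and 420 bp in replicate 2, so a summit just outside a gene belongs to a region that covers it.

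**Figure D2:**
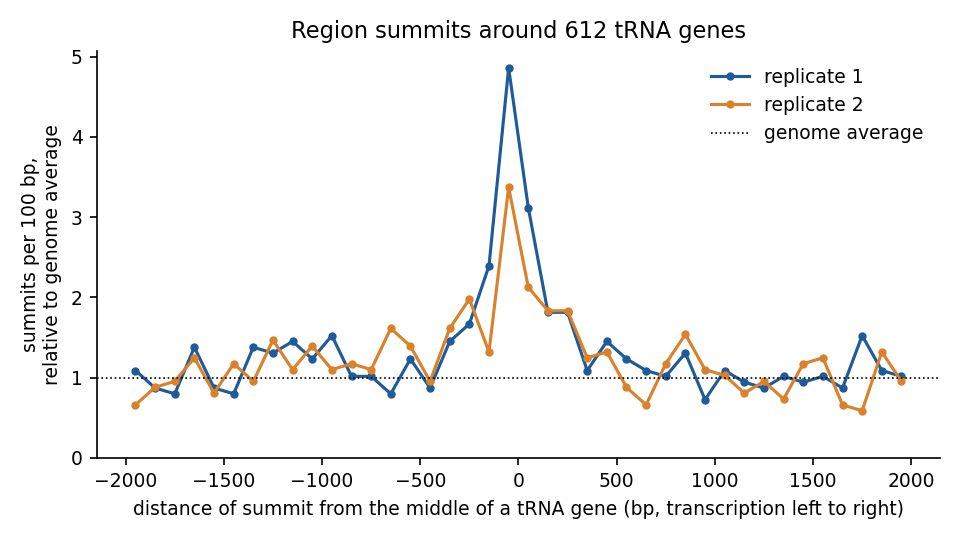
Number of summits per 100 bp relative to the genome average (y axis) by distance from the middle of a tRNA gene, in the direction of transcription (x axis, bp), for each replicate. Both lines peak in the 100 bp before the middle of the gene, at 4.86 and 3.37 times the average (dotted line).

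Regions at tRNA genes ranked high in each list without reaching its top. Signals of the 170 regions of replicate 1 ran from 9.42 through a median of 13.8 to 40.8, against a median of 12.01 and a maximum of 155.4 for all nuclear regions. In replicate 2 they ran from 7.48 through 10.8 to 30.9, against a median of 9.53 and a maximum of 92.3. The signals are the authors' and their scale is not known, so ranks within a list are used from here on. The median rank percentile, where 0 is the strongest, was 30.1 in replicate 1 and 32.0 in replicate 2, where 50 is the middle of a list. The best rank was 142 in replicate 1 and 87 in replicate 2. The strongest 10% of the list held 46 of 170 (27.1%) in replicate 1 and 30 of 130 (23.1%) in replicate 2, and the weakest 10% held 11 (6.47%) and 6 (4.62%).

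Of the 170 regions of replicate 1, 26 (15.3%) were among the 1000 strongest, as were 4.43% of all nuclear regions of the list, and 71 (41.8%) were among the 5000 strongest, against 22.1%. In replicate 2, 21 of 130 (16.2%) were among the 1000 strongest, against 4.46%, and 54 (41.5%) among the 5000 strongest, against 22.4%. The same excess over the background thus appeared in each replicate alone. Within the pooled list the position was nearer the middle. The 58 pooled regions at tRNA genes had signals from 24.6 through a median of 28.8 to 54.2, with a median percentile of 44.6 and a best rank of 204. The lowest signal of an IDR peak was 55.0, so the strongest pooled region at a tRNA gene fell just short of the weakest IDR peak.

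**Figure D3:**
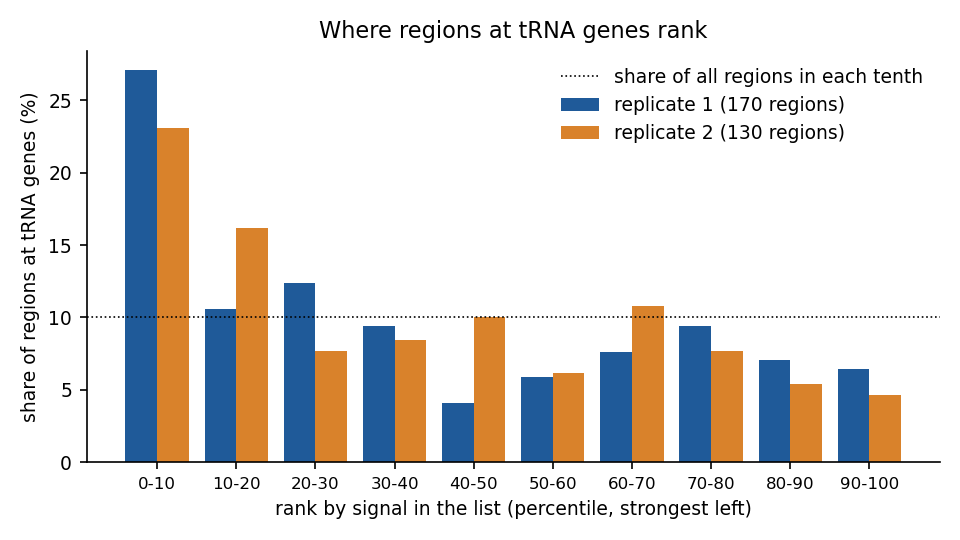
Share of the regions at tRNA genes (y axis, percent) in each 10% step of the list by rank of signal (x axis, percentile, strongest left), for 170 regions of replicate 1 and 130 of replicate 2. In both replicates the strongest 10% hold the largest share, 27.1% and 23.1%, against 10% for all regions (dotted line).

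Regions at tRNA genes recurred between replicates at a higher rate than all regions. Of the 170 in replicate 1, 75 (44.1%, interval 36.5 to 51.9%) overlapped a region of replicate 2 by at least 1 bp, against 31.2% of all regions. Of the 130 in replicate 2, 77 (59.2%, interval 50.3 to 67.8%) overlapped a region of replicate 1, against 31.5%. The partner was itself within 200 bp of a tRNA gene in 59 of the 75 and 66 of the 77. The replicates placed these summits no more precisely than others, with a median gap of 109 bp against 117 bp for all 7052 overlapping regions, and 46.7% against 45.3% of gaps within 100 bp. Signals of the 75 pairs had a Spearman correlation of 0.45, and those of all 7052 pairs 0.17, given as a description since the pairs share their lists and regions are not replicates. Regions found in both lists also ranked better, with a median percentile of 21.7 against 39.5 for those in replicate 1 alone, and 27.7 against 44.6 in replicate 2. Over all regions found in both lists the medians were 42.3 and 42.8, against the middle of the list, 50. Recurring regions thus ranked better in general, and the part of rank in the recurrence at tRNA genes was not tested.

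A larger share of these regions than of all regions reached the pooled list, and nearly none reached the IDR list. In replicate 1, 57 of 170 (33.5%) overlapped a pooled region, against 12.8% of all regions, and in replicate 2, 51 of 130 (39.2%), against 11.4%. An IDR peak was overlapped by 1 region of replicate 1 (0.588%), against 1.05% of all regions, and by 1 of replicate 2 (0.769%), against 1.03%. At these counts the IDR share cannot be told from that of all regions. Of the 58 pooled regions at tRNA genes, 55 overlapped a region of replicate 1, 46 one of replicate 2 and 43 (74.1%) both, close to the 77.6% of all pooled regions. Their summit lay inside the tRNA gene in 12.

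Neither of the IDR peaks concerned lay on a tRNA gene, and no IDR peak overlapped a tRNA gene at all. At C18A11.t2 (chrX:8036685-8036757, minus strand, between protein-coding genes, 4592 bp from the 5′ end of the sex determination gene xol-1), replicate 1 had a region of signal 34.4 and rank 213 at 97 bp from the gene. A stronger region of replicate 1, of signal 47.2 and rank 105, lay 305 bp away. The summit of replicate 2, of signal 29.5 and rank 97, lay at 215 bp, and that of the IDR peak, of signal 71.2 and rank 112, at 274 bp. Of these 4 summits only the weaker one of replicate 1 met the rule.

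At Y38E10A.t1 the rule was met by replicate 2 alone. Its summit, of signal 30.9 and rank 87, lay 195 bp upstream of the gene. That of replicate 1, of signal 34.9 and rank 206, lay at 251 bp, and the IDR summit, of signal 67.4 and rank 122, at 234 bp. The middle of the tRNA gene is 539 bp from the 5′ end of the protein-coding gene Y38E10A.22. The window around the pooled summit, printed above, carries TGGCCTAG. The next IDR summit by distance to a tRNA gene was 861 bp from ZK994.t2.

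These sites also lie near the edge of the rule. Just inside 200 bp were C40C9.t2 (199 bp, signal 12.4) and F52E10.t5 (197 bp, signal 18.9) in replicate 1, and Y38E10A.t1 (195 bp) and H08J11.t3 (192 bp, signal 12.7) in replicate 2. Just outside it were C18D4.t1 (202 bp, signal 10.6) and Y73F8A.t1 (203 bp, signal 13.2) in replicate 1, and W06G6.t2 (201 bp, signal 8.53) and F59C12.t3 (205 bp, signal 14.3) in replicate 2.

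The sites that ranked best in both replicates lay mostly on the X chromosome, and the strongest of them lay at pairs of tRNA genes. M02F4.t2, for glutamate, and M02F4.t1, for glycine, shared a region of rank 142 in replicate 1 (signal 40.8), rank 192 in replicate 2 (signal 22.9) and rank 206 in the pooled list (signal 53.9). Its summit was inside M02F4.t2 in replicate 1 and between the genes in replicate 2, at 65 bp from M02F4.t2 and 52 bp from M02F4.t1. The replicates thus differed over which gene was nearest.

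C53C7.t1 and C53C7.t2, for serine, shared the pooled region with the strongest signal within 200 bp of any tRNA gene, 54.2 at rank 204. Its region ranked 307 in replicate 1 (signal 28.9) and 139 in replicate 2 (signal 25.4), and both summits lay between the genes. F46G11.t1 and F46G11.t2, for proline, had a region of rank 189 in replicate 1 between them and a weaker one of rank 1656 beyond F46G11.t1, while the region of replicate 2, of rank 267, had its summit inside F46G11.t1. All 3 pairs are divergent, that is, transcribed away from each other.

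Over all such pairs the divergent ones did not stand out. Among 96 pairs of neighbouring tRNA genes at most 500 bp apart, an arrangement looked at after these sites had been seen, replicate 1 had a region at 15 of 42 divergent pairs (35.7%), 18 of 33 pairs on the same strand (54.5%) and 10 of 21 convergent pairs (47.6%). Replicate 2 had 12 (28.6%), 12 (36.4%) and 7 (33.3%), and the pooled list 6 (14.3%), 8 (24.2%) and 3 (14.3%). The median gap was 148.5 bp in divergent pairs, 333 bp in pairs on the same strand and 178 bp in convergent pairs, so the pairs do not offer equal room for a summit, and pairs in a row share a gene. Gene by gene, the shares with and without a neighbour were close. Of 236 tRNA genes with another within 1000 bp, 28.8% had a region in replicate 1 and 19.1% in replicate 2, against 29.8% and 21.5% of the 376 that stood alone.

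Sites at isolated genes followed. ZK563.t1, for threonine, lies inside the protein-coding gene ZK563.2 on the opposite strand. It had a summit 37 bp upstream in replicate 1 (signal 30.4, rank 275) and 34 bp upstream in replicate 2 (signal 17.6, rank 584), and its pooled rank was 252. W03G11.t1, for lysine, lies between genes and ranked 1153 and 392, with a summit inside the gene in replicate 1 and 21 bp upstream in replicate 2. F41D9.t3, for asparagine, lies inside sulp-3, a gene of the sulfate permease family, on the opposite strand. It ranked 721 and 981 with both summits upstream, at 95 and 5 bp. F55G7.t2, a second threonine gene, ranked 701 and 1259, with summits 3 and 106 bp upstream.

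Members of other neighbouring pairs came next. C05C9.t1, for leucine, lies 357 bp from C05C9.t2 on the same strand. Its summits lay between these genes and downstream of C05C9.t1, at 53 and 51 bp, with ranks of 1786 and 1481. T23F1.t2, for proline on chromosome V, ranked 1438 and 1725. Its region in replicate 1 lay between it and T23F1.t1, for lysine, where the genes converge. F47G6.t1, an isolated gene for arginine on chromosome I, is the other autosomal gene among the 12 that ranked best in both lists. It lies inside spe-15, which encodes a sperm myosin, and ranked 501 and 340.

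**Figure D4:**
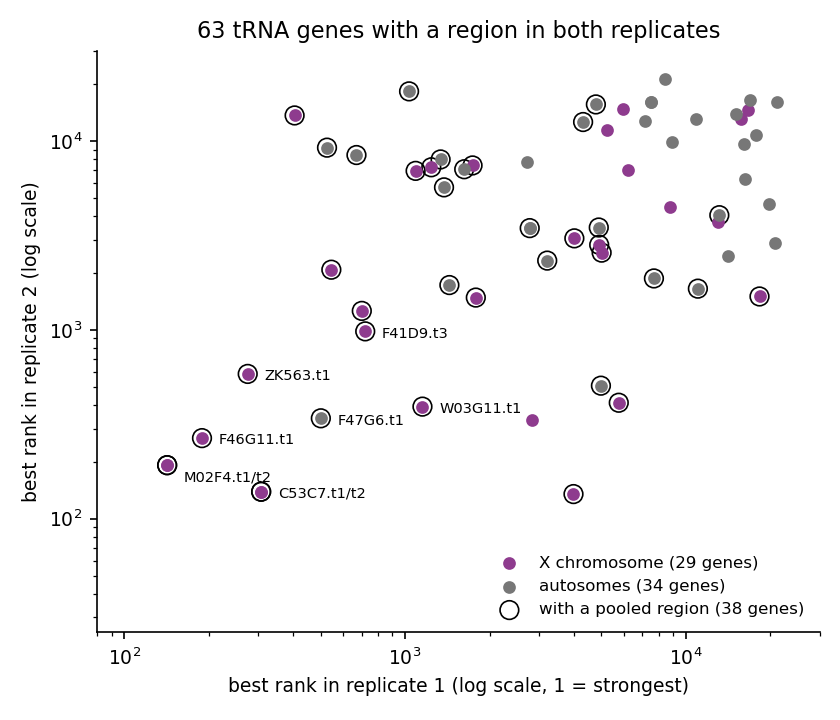
Best rank in replicate 1 (x axis, log scale) against best rank in replicate 2 (y axis, log scale) for the 63 tRNA genes with a region in both lists, by chromosome (colour), with a ring for the 38 that also had a pooled region. The lower left corner, strong in both, holds M02F4.t1/t2, C53C7.t1/t2 and F46G11.t1, all on X.

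Some strong pooled sites rested largely on 1 replicate. C28G1.t1, for glutamate, had rank 135 in replicate 2 (signal 25.6) and rank 3980 in replicate 1 (signal 15.5), and pooled rank 310. It lies on the same strand inside C28G1.2, 132 bp from its 5′ end, so its regions also fall by a protein-coding promoter. C06G1.t1, for histidine, had ranks of 411 in replicate 2 and 5770 in replicate 1. C47E8.t1, for tyrosine, had the reverse, 316 at 208 bp in replicate 1 and 8550 at 105 bp in replicate 2. T21B4.t1, for isoleucine, inside the collagen gene col-85, had rank 345 in replicate 1, with the summit within the tRNA gene, and no region in replicate 2. R04A9.t1, for glutamine, was intermediate, with ranks of 546 in replicate 1 and of 2238 and 2080 for a pair of regions in replicate 2.

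The X chromosome carried more of these regions than any autosome, as it does of tRNA genes. It holds 276 of 612 tRNA genes (45.1%), and 82 of 170 regions in replicate 1 (48.2%, interval 40.5 to 56.0%) and 57 of 130 in replicate 2 (43.8%, interval 35.2 to 52.8%) were there, against 19.5% and 18.8% of all regions. Gene by gene, 32.2% of tRNA genes on X had a region in replicate 1 and 20.3% in replicate 2, and on the autosomes 27.1% and 20.8%. X and the autosomes as a group thus differed little in how often a tRNA gene had a region, and not in the same direction in both replicates.

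X and the autosomes differed more in rank. Regions at tRNA genes on X had a median rank percentile of 22.0 in replicate 1 and 19.9 in replicate 2, and those on autosomes 39.2 and 41.2. All regions on X, in contrast, lay in the middle of each list, at 49.4 and 50.2. In the pooled list X held 33 of the 58 (56.9%), against 19.0% of all pooled regions, and 13.0% of its tRNA genes had a pooled region against 8.04% on the autosomes. Among autosomes, the share of genes with a region ran from 23.1% (chromosome V) to 31.8% (chromosome I) in replicate 1, and from 14.1% (V) to 28.1% (III) in replicate 2. Chromosome V was thus the lowest in both replicate lists. In the pooled list it was the highest autosome, with a region at 12.8% of its genes, close to X. The other autosomes ran from 5.26% (II) to 7.81% (III) there.

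tRNA genes inside protein-coding genes had a region slightly more often than others in both replicate lists. Of the 612 tRNA genes, 290 (47.4%) lie inside a protein-coding gene, 283 of them in an intron and 7 overlapping an exon. Of the genes inside a host, 32.1% had a region in replicate 1 and 22.4% in replicate 2, against 27.0% and 18.9% of the 322 outside. tRNA genes on the strand opposite to the host stood at 35.0% and 24.4%, and those on the same strand at 29.9% and 21.0%. In the pooled list the 290 stood at 10.0% and the 322 at 10.6%, so the order of the replicate lists was not seen there. By region, 85 of 170 in replicate 1 and 68 of 130 in replicate 2 had a nearest tRNA gene that lies in a host. On X the genes inside a host had a region at 36.5% and 20.8%, and those outside at 30% and 20%.

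Regions at tRNA genes were seldom at protein-coding promoters. A promoter window, from 1000 bp upstream to 200 bp downstream of a protein-coding 5′ end, held the summit of 28 of 170 regions in replicate 1 (16.5%), against 25.7% of all regions, and of 24 of 130 in replicate 2 (18.5%), against 25.1%. In the pooled list 8 of 58 (13.8%) lay in such a window, against 38.2% of all pooled regions. tRNA genes with a protein-coding 5′ end within 1000 bp had a region at 26.1% and 19.0% of 184 genes, and those farther away at 30.8% and 21.3% of 428. tRNA genes near a protein-coding 5′ end thus had a region no more often than the others.

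Many tRNA genes are copies of each other. The 612 genes have 200 different sequences, 469 (76.6%) have at least 1 identical copy elsewhere, and the most frequent sequence occurs 29 times. How reads that match several places were treated is not given in the sources used here, and such copies cannot be told apart by reads that lie inside them. Of the 143 genes without a copy, 29.4% had a region in replicate 1 and 13.99% in replicate 2, and of the 287 with over 10 copies, 31.7% and 23.7%. Genes of 2 to 5 copies had 29.3% and 24.4%, and those of 6 to 10 copies 23.0% and 18.0%. Neither replicate shows an order with copy number. In the pooled list the genes without a copy stood at 6.99%, those of 2 to 5 copies at 10.98%, those of 6 to 10 copies at 7% and those with over 10 copies at 12.9%, which is no steady order either. The assignment of reads to M02F4.t2 (20 copies), M02F4.t1 (29) and F46G11.t1 (24) is uncertain for this reason. Among other named genes, the same holds for W03G11.t1 (25), F46G11.t2 and T23F1.t2 (24 each), T21B4.t1 (19) and F41D9.t3 (18). It also holds for ZK563.t1, C28G1.t1 and R04A9.t1 (15 each). The regions at all these genes also cover sequence outside the genes.

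By amino acid, the highest numbers of genes with a region in either replicate were those for glycine (20 of 55, 36.4%), glutamate (19 of 41, 46.3%) and lysine (19 of 46, 41.3%), against 243 of all 612 tRNA genes (39.7%). These counts follow the size of the families, and the glycine share was below that of all tRNA genes. The lowest numbers were the gene for selenocysteine, which had a region in both replicates (1 of 1), and those for phenylalanine (3 of 14) and tryptophan (4 of 12). Proline genes had the most that recurred, 10 of 42 (23.8%) with a region in both replicates, followed by glutamate genes with 6 of 41 (14.6%), against 63 of all 612 (10.3%). Outside the rule for naming families, cysteine genes, picked after their values were seen, had 9 of 13 in either replicate. The annotation gives no anticodon, so genes for 1 amino acid could not be split further, and 5 genes have no amino acid stated.

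The summits at tRNA genes and the IDR peaks held the searched sequence elements in different shares. Elements 1 and 2 below were chosen with earlier results of these data known. Their high shares among IDR peaks are therefore no independent finding, and the shares of all regions are the background to read. The B box was found within 75 bp of the summit in 45 of 170 regions of replicate 1 (26.5%) and 34 of 130 of replicate 2 (26.2%), against 1.32% and 1.21% of all regions. This follows from the rule, since 442 of 612 tRNA genes hold these letters. Of the 198 IDR peaks, 0 held it (interval 0 to 1.85%). tRNA genes with the B box letters had a region at 27.6% and 19.7%, and the 170 without them at 34.1% and 22.9%. The element GAGTACAC, with up to 1 mismatch on either strand and called element 1 here, was in 9 regions of replicate 1 (5.29%) and 5 of replicate 2 (3.85%), where all regions had it in 6.74% and 6.19% and IDR peaks in 35.4%. Within 75 bp of the summit, element 1 was thus no more frequent at tRNA genes than among all regions. Within 150 bp it was in 16.5% and 9.23% of the regions at tRNA genes, against 12.6% and 11.8% of all regions, so the replicates lay on different sides of the background.

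The other element of the IDR peaks, CTAGGCCA, also with up to 1 mismatch and called element 2, was present at tRNA genes but mostly as part of the gene. It lay within 75 bp of the summit in 35 of 170 regions (20.6%) and 24 of 130 (18.5%), against 4.92% and 4.71% of all regions and 36.9% of IDR peaks. Of these 35 and 24, the copy was inside a tRNA gene in 26 and 18, and an exact copy was present in only 3 and 2. Among all 612 tRNA genes, 162 hold the element with up to 1 mismatch and 1 of them holds it exactly. In 159 of the 162 it starts at base 8 of the gene, at the place of the A box. Over all 162, wherever it starts, it reads TGGTCTAG in 80, TGGCCGAG in 59 and TGGCCTAA in 21. The search letters used for the A box, TGGCNNAGT, overlap this word, and were found at 7.06% and 4.62% of the regions against 11.1% of IDR peaks and 1.46% and 1.49% of all regions. These letters occur in only 61 of 612 tRNA genes (9.97%), so their share does not show how often an A box lay under a summit.

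The word goes with the amino acid. Counted at any place in the gene, it is in 40 of 41 glutamate genes, 41 of 42 proline genes and 38 of 39 leucine genes. It is in 22 of 44 arginine genes and in none of the 34 alanine or 34 threonine genes. The proline gene B0212.t1 (chrIV:3552189-3552260, minus strand; ranks 2727 and 7733) and the leucine gene C40H5.t1 (chrX:11757831-11757914, minus strand; ranks 5013 and 2561) show it, with bases 8 to 15 in capitals. They were chosen after their values were seen.
B0212.t1: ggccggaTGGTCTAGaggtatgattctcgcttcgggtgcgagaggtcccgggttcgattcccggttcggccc
C40H5.t1: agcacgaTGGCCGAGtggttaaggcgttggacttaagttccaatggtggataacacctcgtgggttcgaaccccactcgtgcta

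Genes with this word had a region somewhat more often in the replicate lists, at 31.5% and 25.3% of 162 against 28.7% and 18.9% of the other 450, and no more often in the pooled list, at 9.88% against 10.4%. In both replicates the region was seen at 23 of the 162 (14.2%) and 40 of the 450 (8.89%). The families with the word differed in this count. It was 10 of 42 proline genes (23.8%) and 6 of 41 glutamate genes (14.6%). For leucine it was 4 of 39 (10.3%) and for arginine 4 of 44 (9.09%), near the 10.3% of all tRNA genes. The word and the amino acid cannot be told apart here.

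**Figure D5:**
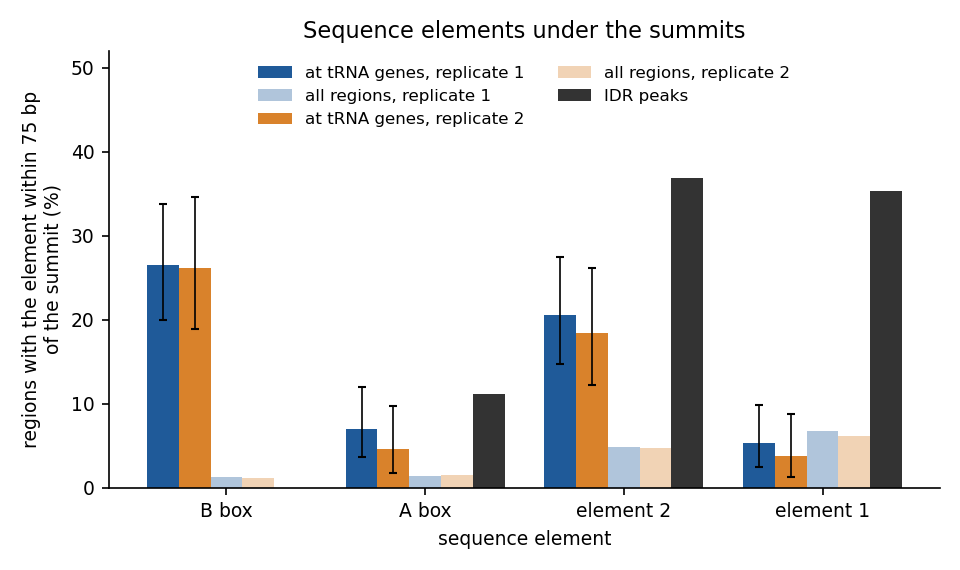
Share of regions (y axis, percent, with exact 95% intervals on the dark bars) that hold a sequence element within 75 bp of the summit, for regions at tRNA genes (dark bars), all regions (pale bars) and the 198 IDR peaks (black). The B box is at 26.5% and 26.2% at tRNA genes and absent from IDR peaks, and element 1 is at 35.4% of IDR peaks but 5.29% and 3.85% at tRNA genes.

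The protein-coding genes of tRNA production were looked at beside the tRNA genes themselves, from 4 lists with 80 symbols, of which 71 matched the annotation. A region in the promoter window was listed for 30 of 71 (42.3%) in replicate 1 and 26 (36.6%) in replicate 2, against 30.1% and 29.0% of all 19973 protein-coding genes. The pooled list had 10 (14.1%, against 6.66%) and the IDR list 3 (4.23%, against 1.18%). This window is wider than the 200 bp used for tRNA genes, so these counts are not compared with those of tRNA genes.

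The 3 genes with an IDR peak were elpc-4 and elpc-2, which encode subunits of Elongator, a complex that modifies the wobble base of tRNAs, and ears-2, for a glutamyl-tRNA synthetase. The elpc-4 region ranked 187 in replicate 1, 111 in replicate 2 and 141 in the pooled list (signal 63.1), and the elpc-2 region 197, 172 and 151 (signal 62.2). Both were thus strong in each replicate. The ears-2 region ranked 120 in replicate 1 but 5132 in replicate 2, with a pooled rank of 181. The next by pooled rank were kars-1 and mars-1, for lysyl- and methionyl-tRNA synthetases (219 and 265), the tRNA ligase gene rtcb-1 (368, with no region in replicate 2), and rpac-19, for a subunit of RNA polymerase I and III (503). The gene tftc-1, for a TFIIIC subunit, had pooled rank 934.

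By list, RNA polymerase III subunits had a region at 5 of 11 genes in replicate 1 and 6 in replicate 2, and RNA polymerase III factors at 4 of 13 in each. Genes of tRNA processing and modification had 9 of 15 and 5 of 15, and aminoacyl-tRNA synthetases 12 of 32 and 11 of 32. None of the 11 polymerase subunit genes or 13 factor genes had an IDR peak, and these lists are too short for that to limit their share.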

How the data were processed

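ChIP-seq region lists of 2 biological replicates were used in ce11. The signal of each region is the value deposited by the authors, on an unstated scale, and it was used only to rank regions within a list. Per the accompanying notes, both replicates together gave the pooled list, and the IDR list came from all 3. The sources used here do not give the aligner, the peak caller or the IDR threshold. The 2 mitochondrial regions of replicate 2 were left out of the counts but kept ranks 1 and 2. Genes came from Ensembl release 115, amino acids and sequence from RefSeq (WBcel235). A region was assigned to the nearest tRNA gene if its summit lay within 200 bp, and overlap between lists needed 1 bp. Sequence sharing a run of 30 bases with a chromosome not printed here was left out. Motifs were searched on both strands.

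The rule, the gene lists and both elements were chosen with earlier results of these data known. Named tRNA genes were those of regions overlapping an IDR peak, the 15 with the highest pooled signal, the 12 best by poorer rank in both replicates, the 3 best of each replicate and those at the edge of the 200 bp. No test was made. The assignment and overlap steps were tested on simulated data. Intervals came from SciPy 1.17.1, tables from pandas 2.3.3 with NumPy 2.4.6 under Python 3.11.15, and plots from Matplotlib 3.10.9.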

Additional observations from a re-analysis of the deposited data

How the results depend on the processing

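Values below pool both replicates, and 32 of 87 alternative values moved by more than 1 SD between the replicates or, for counts of genes, by over 1.5 times. As reported, 0.667% of regions were at tRNA genes, with a median rank percentile of 31.3. Of these regions 50.7% overlapped the other replicate, 36% the pooled list and 0.667% the IDR list, 46.3% were on X, 51% in a host gene and 22% had the summit inside the tRNA gene, and a tRNA gene had a region at a mean of 25%. With a limit of 100 bp the share of regions was 0.509%, the median percentile 28.2, the IDR overlap 0.437% and the summits inside 28.8%. With 500 bp these were 1.04%, 37.7, 1.07% and 14.1%, with 40.03% of genes, 29.2% in the pooled list and 49.3% in a host gene. With the 5000 strongest regions of each list, the share was 1.25%, genes with a region 10.8%, pooled overlap 65.6%, IDR overlap 1.6% and X 56.8%. The overlaps and the X share of all regions were not computed for this setting. Its values therefore do not show whether regions at tRNA genes differ from other strong regions. Without tRNA genes near a protein-coding 5′ end, the share was 0.492%, IDR overlap 0.452%, X 53.4% and summits inside 23.1%. With neighbouring tRNA genes taken as 1 locus, the median percentile was 29.1 and summits inside 22.6%. With summits within 100 bp counted as overlap, 27.7% recurred in the other replicate, 28.3% were in the pooled list and 0.333% in the IDR list, and with the stronger 50% of the IDR list 0 were. Shares over all regions were not computed for these settings either. Within 150 bp of the summit, the A box letters were at 8.33%, against 2.68% and 2.90% of all regions in replicates 1 and 2. The B box was at 54%, against 2.70% and 2.46%, and in 1.52% of IDR peaks. Element 1 was at 13.3%, against 12.6% and 11.8%, and element 2 at 30%, against 8.71% and 8.51%. With windows of 500 bp upstream to 100 bp downstream, 18 and 16 genes of tRNA production had a region in the replicates, in place of 30 and 26, which is 25.4% and 22.5% against 18.0% and 17.0% of all protein-coding genes. Counting regions that overlap a tRNA gene by at least 1 bp, or overlaps of at least 50% of the shorter region, moved no value by more than this spread.

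Leaving out replicate 1 or replicate 2 gives the values of the other alone, from 0.581% to 0.752% for the share of regions, 20.6% to 29.4% for genes with a region, 30.1 to 32.0 for the median percentile, 44.1% to 59.2% for recurrence, 33.5% to 39.2% for the pooled list, 0.588% to 0.769% for the IDR list, 43.8% to 48.2% on X, 50% to 52.3% in a host gene and 21.5% to 22.4% inside the gene. These ranges define the spread used here, so they cannot exceed it. No paired analysis was possible because there is 1 group. With 2 replicates, unknown depth and no control analysed here, a gene without a listed region is not shown to be unbound, and identical tRNA genes limit where a region can be placed.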

Other observations

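The mitochondrial genome, which has 22 tRNA genes, was outside the rule. Replicate 1 listed 0 regions there and replicate 2 listed 2, the strongest of its list, at positions 12259 to 12598 with signal 3081 and 13019 to 13332 with signal 604.6. The largest nuclear signal of that replicate was 92.3. The tRNA gene nearest to both summits was MTCE.36, at 846 and 76 bp.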
